A study of Mus musculus with 24 samples.

Results

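RNA levels were compared between 3 libraries of macrophages carrying LyzM-Cre on a floxed Smad2 background (MyS2KO) and 3 libraries of Smad2 fl/fl macrophages without Cre (Smad2fl), all after TGF-β1. These 6 libraries, chosen by their genotype and treatment labels, are 6 of the 24 in the series. Both groups were C57BL/6, carried the floxed Smad2 alleles and came from tibial bone marrow of mice aged 2 to 3 months. Marrow cells were grown into adherent macrophages with a source of IL-3 and with CSF-1, kept without serum for about 16 hours, and given TGF-β1 at 10 ng/ml for 4 hours. The remaining 18 libraries were untreated cultures of the same genotypes and a parallel Smad3 line (Smad3fl and MyS3KO, untreated and treated), with 3 libraries in each group. The comparison asks which transcripts differ in TGF-β1-stimulated macrophages when Smad2 is targeted in myeloid cells. LyzM-Cre is expressed from the lysozyme gene Lyz2, so recombination depends on that gene's activity in each cell. The labels do not say whether the 3 libraries of a group came from separate animals, and p-values here measure only the spread between libraries.

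TGF-β1 binds a pair of receptor kinases, which phosphorylate Smad2 and Smad3. These join Smad4, enter the nucleus and act with other factors to raise or lower target genes. Among the targets are inhibitors of the pathway itself, which limit the signal. In macrophages TGF-β is known for restraining inflammatory cytokines and for raising genes of tissue-resident cells.

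Smad2 itself was at 39.1, 35.9 and 38.3 CPM (counts scaled to the TMM-adjusted library total) in the treated Smad2fl libraries. It was at 38.7, 47.2 and 34.9 CPM in the libraries labelled MyS2KO. These groups overlapped and the difference was not called (log2 change 0.09 ± 0.12, adjusted p = 0.891, edgeR quasi-likelihood test with Benjamini-Hochberg adjustment). The count covers all exons of the gene and does not resolve the floxed ones, so it does not check the label. Per the labels, qPCR and Western blots had shown the loss of Smad2. Because the counts do not show it, the group is called by its label throughout. Smad4, the common partner, was at 45.8 ± 2.80 and 47.3 ± 0.683 CPM (SD, n = 3) and Smad3 at 57.2 ± 8.39 and 49.4 ± 3.12, and neither was called (adjusted p = 0.941 and 0.701). Lyz2, the locus that carries Cre, was at 8934, 7462 and 8196 CPM in treated Smad2fl and at 4145, 4117 and 4393 in the libraries labelled MyS2KO. The groups did not overlap, but the difference was not called (log2 change -0.96 ± 0.37, adjusted p = 0.367).

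The 6 libraries held 17661674 to 22754978 counted reads. All 24 were fitted in 1 model, in which 14261 genes were tested. A principal component analysis of the tested genes set 5 of the 6 Smad3fl libraries apart along its leading axis (36.9% of variance), at 51.1 to 68.7 against -53.5 to 15.3 for the others. Libraries of the Smad2 line scored between -53.5 and -4.01. Macrophage markers summed to 25115 to 26373 CPM in treated Smad2fl and 20808 to 22298 CPM in the libraries labelled MyS2KO. Lyz2 is 1 of these markers, with means of 8197 and 4218 CPM. Of the 15 markers tested, 8 had a log2 change above 0 and 7 below 0 (median 0.03). In bulk RNA a smaller number of cells of a type cannot be told from less RNA per cell.

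Under TGF-β1, 60 of 14261 genes were called at an adjusted p under 0.05 (0.421% of those tested), 27 higher (0.189%) and 33 lower (0.231%) in the libraries labelled MyS2KO. The lower genes included 3 feedback inhibitors of the TGF-β pathway, Smad7, Ski and Pmepa1, the chemokine receptor gene Cxcr4, the kinase gene Nuak1 and the integrin genes Itga6 and Itgal. The higher genes included the transcriptional regulators Cited2, Cebpd and Pparg and the antiproliferative gene Tob1. Changes were moderate: 15 of the higher and 8 of the lower genes changed at least 2-fold. The 3 and 3 libraries did not overlap for any of the 60 genes, which held for 19.4% of all tested genes. The median change of all tested genes was 0.01 on the log2 scale, and 1313 genes had an unadjusted p under 0.05.

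The number of calls moved with single libraries. Without Smad2fl library 1, or without library 2 or library 3 of those labelled MyS2KO, edgeR called 0 genes, with 936, 1080 and 1107 at an unadjusted p under 0.05. Without Smad2fl library 2 it called 6 genes, without MyS2KO library 1 it called 37, and without Smad2fl library 3 it called 57. DESeq2 on all 24 libraries called 212 genes, 59 of them among the 60, and edgeR on the 6 libraries alone called 271, 55 of them among the 60. None of the 60 genes changed direction in any of the alternatives run.

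Among feedback inhibitors, 3 of 18 tested fell, none rose, and the median change was -0.20 (0.01 over all genes). Over all 14261 tested genes 33 were called lower (0.231%). The lists were chosen with earlier results of these data known. Smad7 (chr18:75367529-75395935, mm10), which blocks the type I receptor, was at 42.0, 44.1 and 41.0 CPM in treated Smad2fl and at 25.7, 23.7 and 23.0 in the libraries labelled MyS2KO. All 3 Smad2fl libraries were above all 3 of the others, and the difference was called (log2 change -0.81 ± 0.17, adjusted p = 0.0394). Without TGF-β1 Smad7 lay between 0.585 and 1.56 CPM in all 6 libraries of both genotypes, and no difference was called there. Pmepa1 (chr2:173224458-173276533), a membrane protein that holds receptor-activated SMADs away from the receptor, was at 29.3, 30.2 and 24.7 CPM against 15.8, 7.98 and 9.44. The highest library labelled MyS2KO was still below the lowest Smad2fl library (log2 change -1.35 ± 0.28, adjusted p = 0.034). Untreated, Pmepa1 was at 0 to 0.242 CPM in both genotypes.

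Ski (chr4:155154075-155222592), a corepressor that binds SMAD complexes, was at 259, 276 and 241 CPM against 179.8, 161 and 159.6 (log2 change -0.63 ± 0.11, adjusted p = 0.0165). The groups were separate. Of the receptors and SMADs, 0 of 20 tested were called (edgeR), 13 had a change below 0, and the median was -0.09. The smallest p among them belonged to Smad5, a SMAD of the BMP branch, at 24.3 ± 0.892 against 18.4 ± 1.63 CPM (adjusted p = 0.28). The receptor gene Tgfbr1 was at 92.7 ± 7.21 against 69.9 ± 17.8 CPM, with overlapping libraries (adjusted p = 0.721).

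Of 26 classical target genes tested, 1 fell (0.231% of all tested genes did), none rose, 18 had a change below 0 and the median was -0.40. The gene that fell was Nuak1 (chr10:84370905-84440597), an AMPK-related kinase. It was at 31.5, 25.4 and 23.4 CPM in treated Smad2fl and 16.8, 10.3 and 10.7 in the libraries labelled MyS2KO, without overlap (log2 change -1.09 ± 0.22, adjusted p = 0.0308). Bhlhe40, a circadian and immune repressor, was at 10.3 ± 1.26 against 5.79 ± 0.601 CPM and was not called (adjusted p = 0.106). The ETS factor gene Ets2 had the opposite sign, at 33.3 ± 8.50 against 57.1 ± 6.78 CPM (adjusted p = 0.0858). Of 5 tested ID genes and BMP targets none was called, with a median of -0.20.

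**Figure D1:**
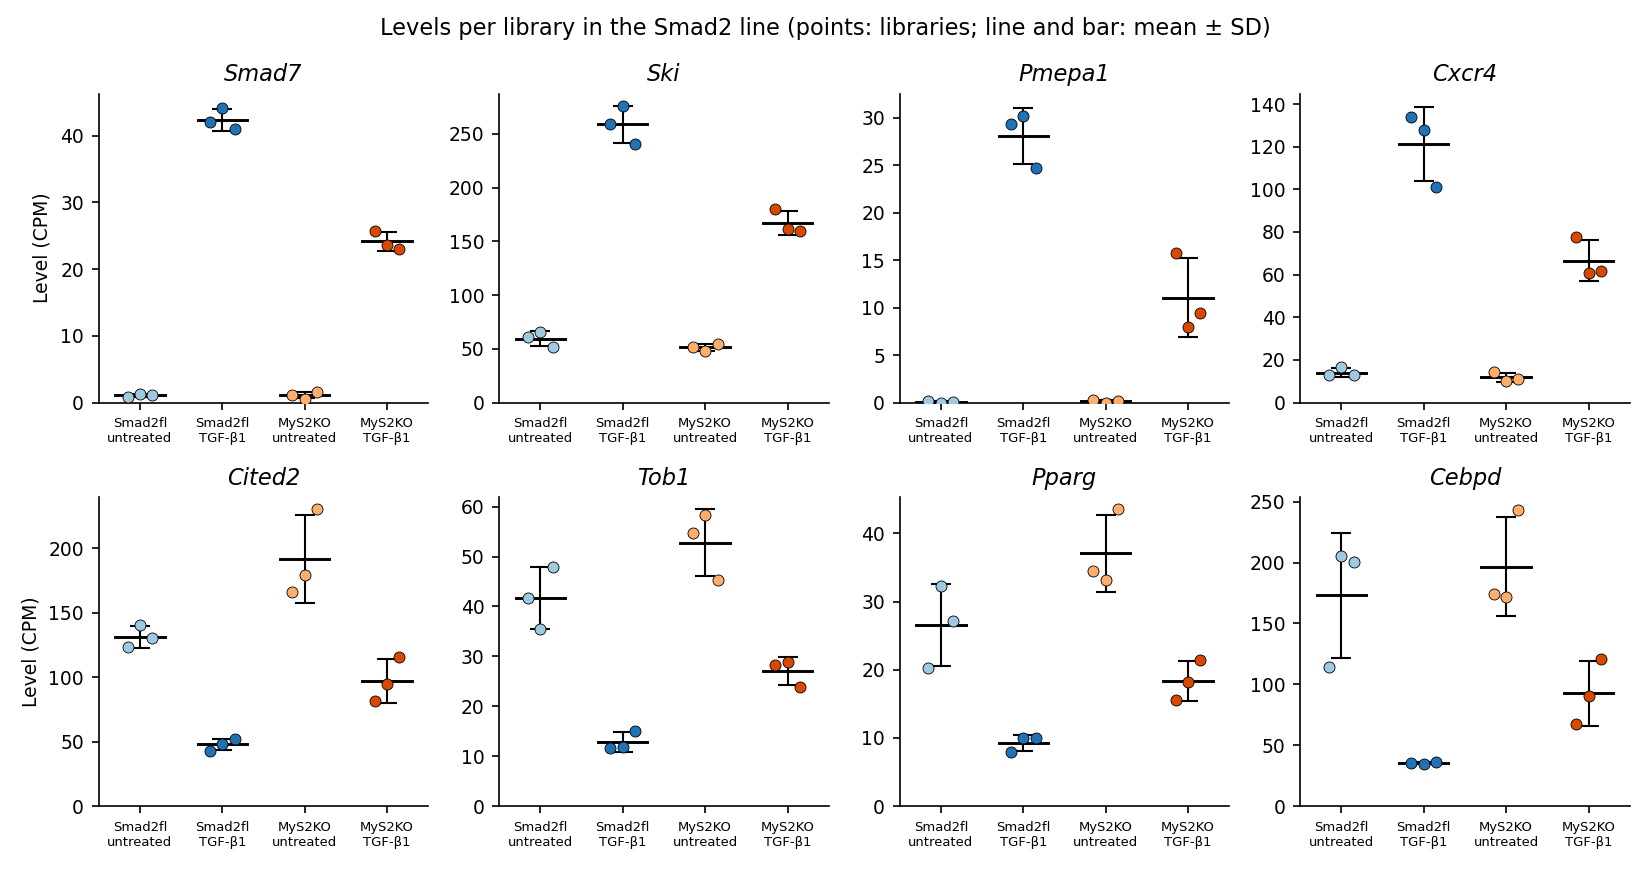
Levels of 8 called genes in each library of the Smad2 line, in CPM on linear axes that start at 0 (points: libraries; horizontal line and bar: mean ± SD, n = 3). Smad7, Ski, Pmepa1 and Cxcr4 were higher with TGF-β1 than without it in both genotypes and stood lower in the treated libraries labelled MyS2KO than in treated Smad2fl, while Cited2, Tob1, Pparg and Cebpd were lower with TGF-β1 and stood higher in the treated libraries labelled MyS2KO.

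The lower gene with the smallest p was Iqgap3 (chr3:88081971-88121048), a scaffold protein of the IQGAP family. It was at 28.7, 31.4 and 21.7 CPM in treated Smad2fl and at 14.1, 12.8 and 12.7 in the libraries labelled MyS2KO (log2 change -1.04 ± 0.16, adjusted p = 0.00859). Vhl, the substrate receptor of a ubiquitin ligase that marks HIF-α for degradation, was at 131, 119 and 108 against 72.7, 58.1 and 71.0 CPM (log2 change -0.83 ± 0.13, adjusted p = 0.00859). Hexokinase 2 (Hk2), which starts glycolysis, was at 500.0, 426 and 392 against 294, 262 and 224 CPM (log2 change -0.76 ± 0.12, adjusted p = 0.00963). The groups were separate for all 3 genes. Hk2 was the only one of 25 glycolysis and hypoxia genes called (0.421% of all tested genes were), and the median of that list was -0.06.

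Other lower genes had varied roles. The mitotic kinase gene Nek6 was at 56.1 ± 7.25 CPM in treated Smad2fl and 28.3 ± 4.68 in the libraries labelled MyS2KO (SD, n = 3, log2 change -0.99 ± 0.17, adjusted p = 0.0117). Mical2, an enzyme that oxidises actin, was at 28.8 ± 0.812 against 13.3 ± 2.41 CPM (log2 change -1.11 ± 0.21, adjusted p = 0.0179). Fkbp5, an Hsp90 co-chaperone that acts on the glucocorticoid receptor, was at 56.6 ± 4.99 against 29.2 ± 3.99 CPM (log2 change -0.95 ± 0.17, adjusted p = 0.0176). Enpp1, which hydrolyses extracellular ATP and cGAMP, was at 33.2 ± 5.03 against 17.9 ± 3.23 CPM (adjusted p = 0.0179). Elk3, an ETS factor, was at 114 ± 9.17 against 65.0 ± 6.80 CPM, and Ndc1, a nuclear pore protein, at 15.3 ± 1.75 against 6.57 ± 0.514 (adjusted p = 0.0327 and 0.0394). Akirin1, Fhad1, Hivep3, Dtx4, AU020206 and Gtf2h2 also fell, by 0.60, 1.11, 0.69, 0.68, 0.88 and 1.09 on the log2 scale.

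Several of the smaller decreases follow. Myh9, the heavy chain of non-muscle myosin, was at 1670.1 ± 110.4 against 1185 ± 72.4 CPM (log2 change -0.50 ± 0.11, adjusted p = 0.0453). Inpp5d, the lipid phosphatase SHIP1, was at 798 ± 70.8 against 563 ± 26.3 CPM (log2 change -0.50 ± 0.11, adjusted p = 0.0394). Tbxas1, thromboxane synthase, was at 120.1 ± 14.6 against 76.9 ± 3.79 CPM (adjusted p = 0.0232). For Ddx18 (an RNA helicase), Bpnt1, Ykt6 (a SNARE), Rassf2, Pacsin2 (a membrane-bending protein) and Mgat5 (an N-glycan branching enzyme) the decreases were 0.69, 0.69, 0.54, 0.50, 0.48 and 0.44 on the log2 scale. The counted reads of Tbxas1 cover a region that also holds reads of Hipk2 on the opposite strand. Of the 60 called genes 26 overlap another annotated gene with reads, and the strand setting of the counting is not given in the sources used here. Nek6 overlaps Psmb7, Elk3 overlaps Cdk17, Rchy1 overlaps Thap6, Cebpd overlaps Spidr, Pde12 overlaps Arf4 and Gm48226 overlaps Gphn, each on the opposite strand.

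Migration and adhesion receptors gave 3 of the lower genes. Cxcr4 (chr1:128588199-128592293), the receptor for the chemokine Cxcl12, was at 134, 128 and 101 CPM in treated Smad2fl and at 77.5, 60.5 and 61.8 in the libraries labelled MyS2KO, without overlap (log2 change -0.86 ± 0.16, adjusted p = 0.0195). It was the only gene called of 19 migration receptors tested, whose median was -0.03. Itga6, the α6 chain of laminin-binding integrins, was at 325, 392 and 297 against 257, 202 and 177 CPM (log2 change -0.67 ± 0.14, adjusted p = 0.034). Itgal, the α chain of LFA-1, was at 193, 185 and 154 against 115, 112 and 117 CPM (log2 change -0.63 ± 0.14, adjusted p = 0.0394). Both were separate between the groups. Of 22 integrin and adhesion genes tested these 2 fell, none rose, and the median was -0.03. Over all tested genes 0.231% were called lower.

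Transcriptional regulators were among the higher genes. Cited2 (chr10:17723218-17725674), which competes for the coactivators CBP and p300, was at 43.1, 48.2 and 52.0 CPM in treated Smad2fl and at 81.4, 94.9 and 116 in the libraries labelled MyS2KO (log2 change 1.03 ± 0.16, adjusted p = 0.00963). Tob1 (chr11:94211454-94215495), an antiproliferative protein of the BTG family, was at 11.7, 11.8 and 15.1 against 28.3, 28.9 and 23.8 CPM (log2 change 1.07 ± 0.18, adjusted p = 0.0117). Cebpd (chr16:15887286-15891031), a C/EBP factor that amplifies inflammatory transcription, was at 35.2, 34.4 and 36.5 against 67.1, 90.8 and 120.5 CPM (log2 change 1.39 ± 0.29, adjusted p = 0.0394). None of these groups overlapped, and the 3 Smad2fl libraries of Cebpd lay closer together than those labelled MyS2KO.

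Pparg (chr6:115360951-115490399), the nuclear receptor of lipid handling, was at 7.95, 10.00 and 9.92 against 15.6, 18.2 and 21.4 CPM (log2 change 0.99 ± 0.18, adjusted p = 0.0179). It was the only gene called of 18 lipid efflux and nuclear receptor genes (0.421% of all tested genes were called). Of the 18, 12 had a change below 0 (median -0.12). L3mbtl3, a chromatin reader, was at 3.93 ± 0.551 against 9.05 ± 1.44 CPM (adjusted p = 0.0172). The small GTPase gene Rnd3 was at 9.87, 11.1 and 13.2 against 25.1, 24.4 and 23.1 CPM (log2 change 1.09 ± 0.19, adjusted p = 0.0165). Its paralog Rnd1 was scarce, with 3 to 10 reads per library in treated Smad2fl and 26 to 34 in those labelled MyS2KO (log2 change 2.15 ± 0.43, adjusted p = 0.0285).

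Ifitm6, of the interferon-induced transmembrane family, was at 12.1 ± 1.03 against 23.9 ± 2.92 CPM (log2 change 0.98 ± 0.16, adjusted p = 0.0117). Lamc1, the laminin γ1 chain, was at 23.2 ± 2.90 against 40.5 ± 5.25 CPM, and Ptpro, a receptor tyrosine phosphatase, at 92.8 ± 6.40 against 142 ± 15.2 (adjusted p = 0.0488 and 0.0453). Rises between 0.44 and 1.33 on the log2 scale were also called for Pcdhac2, Gm48226, Rhobtb1, Gypc, Zfp703, Pde12, Ppfibp2, Rchy1, Fam84b and Tmem168. Few reads lie behind Gbp8 and Pcsk4: treated Smad2fl libraries held 1 to 7 and 1 to 4 reads, and those labelled MyS2KO 21 to 38 and 17 to 27. Gbp8 belongs to a cluster of close paralogs and shares its interval with Gbp9 and Gbp4, which reads may not separate. Pcdhac2 shares exons with the other α-protocadherins.

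Promoter sequence is shown for 4 of the genes above that responded to TGF-β1 in all genotypes: Nuak1 and Cxcr4, which were lower in the libraries labelled MyS2KO, and Cited2 and Tob1, which were higher. Each is the 250 bases before the start annotated by RefSeq, 5′ to 3′ on the gene's strand, in GRCm38.p6. Where a gene has several annotated starts, the farthest upstream was taken, which need not be the start used in these cells. Capitals mark CAGAC or its reverse complement GTCTG, the core that SMADs bind, and the GC-rich SMAD motif GGCGC or its reverse complement GCGCC, searched on both strands with overlaps counted.
Nuak1, chr10:84440669-84440918 on the minus strand: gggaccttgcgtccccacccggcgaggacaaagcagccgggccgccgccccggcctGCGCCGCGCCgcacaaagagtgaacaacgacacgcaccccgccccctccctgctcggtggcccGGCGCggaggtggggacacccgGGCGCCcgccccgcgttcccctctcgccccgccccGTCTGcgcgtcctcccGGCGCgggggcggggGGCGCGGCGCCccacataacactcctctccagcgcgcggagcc
Cxcr4, chr1:128592300-128592549 on the minus strand: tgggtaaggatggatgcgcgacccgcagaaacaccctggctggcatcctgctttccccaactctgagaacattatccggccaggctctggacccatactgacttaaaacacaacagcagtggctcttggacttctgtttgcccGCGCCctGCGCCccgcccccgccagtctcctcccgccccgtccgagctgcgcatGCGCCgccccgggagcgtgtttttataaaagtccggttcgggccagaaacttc
Cited2, chr10:17722978-17723227 on the plus strand: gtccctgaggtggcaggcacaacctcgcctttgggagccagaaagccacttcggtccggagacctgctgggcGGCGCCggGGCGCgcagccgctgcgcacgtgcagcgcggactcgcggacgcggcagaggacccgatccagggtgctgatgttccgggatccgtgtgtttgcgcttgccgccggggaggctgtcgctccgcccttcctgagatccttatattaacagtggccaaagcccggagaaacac
Tob1, chr11:94211204-94211453 on the plus strand: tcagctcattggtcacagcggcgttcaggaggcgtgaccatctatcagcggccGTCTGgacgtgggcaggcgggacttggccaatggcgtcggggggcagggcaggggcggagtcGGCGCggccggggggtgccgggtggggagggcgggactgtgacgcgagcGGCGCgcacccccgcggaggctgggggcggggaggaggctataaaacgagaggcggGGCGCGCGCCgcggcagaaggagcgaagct
The Nuak1 window holds 9 matches to GGCGC or GCGCC, that of Tob1 holds 4, and those of Cxcr4 and Cited2 hold 3 each. CAGAC or GTCTG occurs at 1 position each in the Nuak1 and Tob1 windows and is not in the other windows shown. CAGAC or GTCTG was found in 40.8% of the 9935 tested genes with a promoter in the table, in 14 of 26 called lower genes (53.8%) and in 7 of 16 called higher genes (43.8%). GGCGC or GCGCC was found in 53.9% of all, in 15 of the 26 (57.7%) and in 8 of the 16 (50%). The palindrome GTCTAGAC was found in 18 of the 9935 windows and in none of the called genes. A match describes letters in this window and is not evidence of binding.

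Genes that respond to TGF-β1 were then followed as a group. They were chosen in the Smad3 line, whose libraries are not among the 6 compared here: 332 genes were called and raised at least 2-fold by TGF-β1 in both Smad3fl and MyS3KO, and 101 were called and lowered at least 2-fold in both. Of the 332 raised genes, 319 were lower in the treated libraries labelled MyS2KO than in treated Smad2fl, with a median log2 change of -0.55, a 1.47-fold decrease. Of the 101 lowered genes, 95 were higher there, with a median of 0.63, a 1.55-fold increase. The 13828 other genes had a median of 0.01, with 6668 lower and 7148 higher. Called genes followed the same division: 20 of the 332 raised genes fell and none rose, and 9 of the 101 lowered genes rose and none fell. The rest of the calls, 13 lower and 18 higher, came from the 13828 other genes.

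The shift was present in each library. Against the mean of treated Smad2fl, the median of the 332 raised genes was -0.41, -0.59 and -0.55 (log2 of CPM + 0.5) in the libraries labelled MyS2KO and 0.04, 0.03 and -0.07 in the Smad2fl libraries. The median of the 101 lowered genes was 0.50, 0.60 and 0.57 against -0.12, -0.04 and 0.10. For the other genes each of the 6 libraries lay at 0.01 or nearer to 0. The 3 libraries labelled MyS2KO were separate from the 3 Smad2fl libraries for both sets. They remained far from the untreated libraries, in which the raised genes had medians of -1.68 to -1.45 and the lowered genes 1.09 to 1.24.

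Side by side, TGF-β1 raised the 332 genes by a median of 1.81 in Smad2fl (308 called higher) and 1.25 in the libraries labelled MyS2KO (225 called), and lowered the 101 genes by 1.25 (87 called) and 0.68 (31 called). Both responses share libraries with the comparison under TGF-β1. Without TGF-β1 the libraries labelled MyS2KO differed from Smad2fl by a median of 0.00 over the 332 genes (160 lower, 167 higher). The median over the 101 genes was 0.07 (46 lower, 55 higher). Leaving out any 1 of the 6 libraries left 316 to 323 of the 332 lower and 94 to 97 of the 101 higher. Chosen in MyS3KO alone, which leaves out the Smad3fl libraries that stood apart, 414 of 506 raised genes were lower (median -0.43) and 193 of 211 lowered genes were higher (median 0.49).

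**Figure D2:**
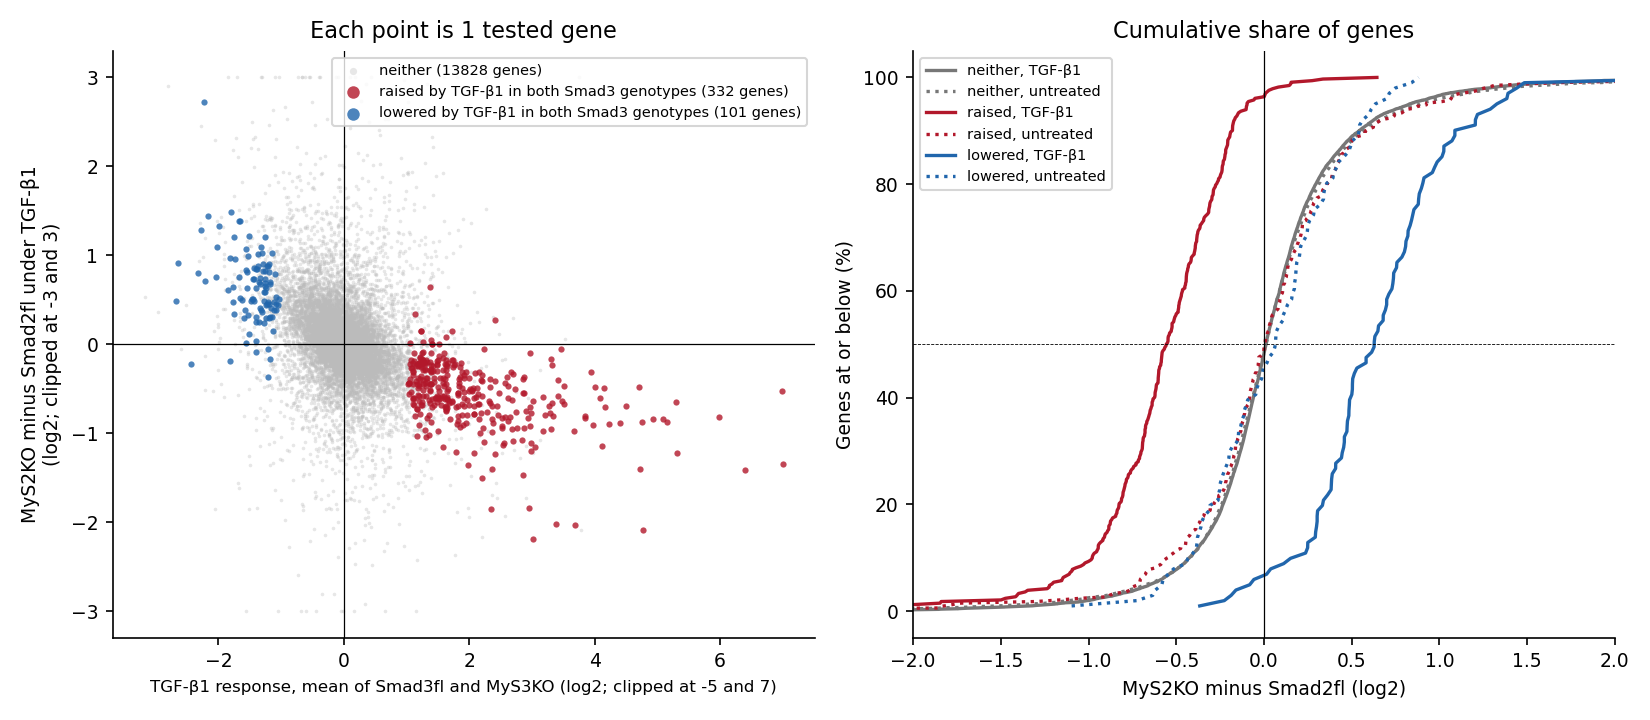
Left, each tested gene by its TGF-β1 response in the Smad3 line (x axis, mean log2 change of Smad3fl and MyS3KO) and by its difference between libraries labelled MyS2KO and Smad2fl under TGF-β1 (y axis, log2). Right, the cumulative share of genes by that difference (solid: TGF-β1; dotted: untreated): the 332 raised genes centre at -0.55 and the 101 lowered genes at 0.63 under TGF-β1, against 0.00 and 0.07 untreated, while the 13828 other genes centre at 0.01.

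Across all 14261 genes the difference under TGF-β1 had a Pearson correlation of -0.34 (Spearman -0.39) with the TGF-β1 response of Smad3fl and of -0.25 (Spearman -0.34) with that of MyS3KO. With the untreated difference between the libraries labelled MyS2KO and Smad2fl the correlation was 0.27 (Spearman 0.33). The libraries on the 2 sides of each correlation are not shared. Genes are not independent replicates, and these values are descriptions.

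The same genes were compared without TGF-β1. There 10 genes were called (0.0701%), but 5 without Smad2fl library 2 and 6, 2 and 4 without library 1, 2 or 3 of those labelled MyS2KO. Of the 10, 3 were also among the 60: Itgal, AC166110.3 and Serpina1e. Itgal was at 228, 219.7 and 189 CPM in untreated Smad2fl and at 119, 105 and 113 in the untreated libraries labelled MyS2KO (-0.92 on the log2 scale, adjusted p = 0.00556). AC166110.3, a gene with no assigned name, was at 8.01 ± 1.66 against 2.86 ± 0.763 CPM untreated and at 7.64 ± 0.567 against 3.39 ± 0.462 treated. Of the 60 genes 55 had the same sign untreated, 27 of 27 higher and 28 of 33 lower ones. For each gene the untreated difference was taken as a percentage of the treated one, and the median of these percentages was 44.0%. The 60 were chosen by their treated difference, so the smaller untreated values are a description and show no loss of the difference without TGF-β1. The 5 that differed in sign were Pmepa1, Smad7, Fkbp5, AU020206 and Gtf2h2, none of them called untreated.

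**Figure D3:**
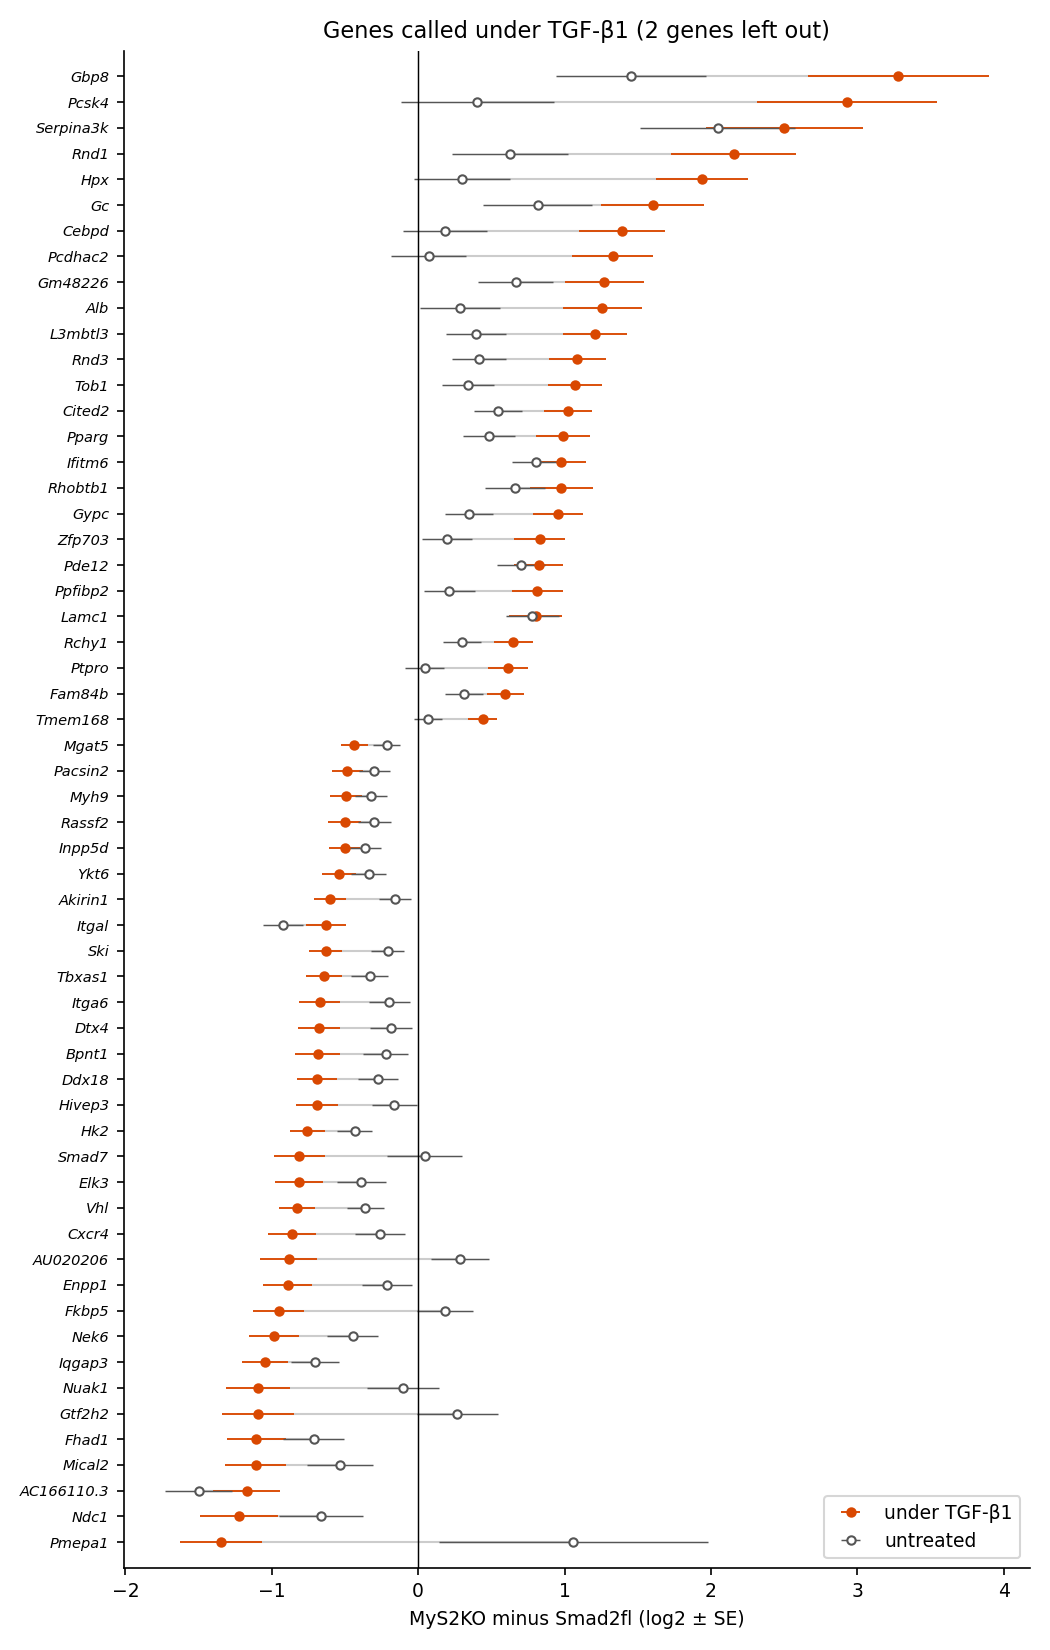
Log2 differences between the libraries labelled MyS2KO and Smad2fl (x axis, with SE bars) for called genes, under TGF-β1 (filled) and untreated (open). The plot leaves out 2 genes, Serpina1e among them because treated and untreated Smad2fl libraries held 0 reads, and the untreated value of Pmepa1 rests on levels of at most 0.242 CPM. Open points lie nearer 0 than filled points for most genes, which were chosen by the filled values, with Itgal and AC166110.3 beyond them.

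Whether the difference between the libraries labelled MyS2KO and Smad2fl changed with TGF-β1 was tested as an interaction in the 4 groups of the Smad2 line. It was called for 1 gene of 14261 (0.00701%), Chst3, and for 0 of the 60 called genes (edgeR), of which Fkbp5 and AU020206 had the smallest unadjusted p (0.000208 and 0.000381, adjusted p = 0.371 and 0.435). A DESeq2 test of the interaction called 5 genes, and 489 genes had an unadjusted p under 0.05 with edgeR. Chst3 makes chondroitin 6-sulfate. It was at 1.91, 1.96 and 1.04 CPM in untreated Smad2fl and 4.12, 3.29 and 4.88 in the untreated libraries labelled MyS2KO, where it was higher. Under TGF-β1 it was at 18.4, 19.2 and 17.7 against 12.1, 11 and 13.8 CPM, where it was lower without being called (adjusted p = 0.193). The interaction was -1.89 ± 0.27 (adjusted p = 0.00676). It was not called in the 12 libraries of the Smad2 line alone, nor without library 2 of those labelled MyS2KO and treated, nor without library 3 of those untreated.

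Of the 41 gene lists followed, 7 had a called member in the comparison under TGF-β1. Several others had medians away from 0 without a call. Among TGF-β dependent microglia genes 8 of 10 tested were below 0 (median -0.51), and untreated 7 were (median -0.16). Fcrls, an Fc receptor-like gene, was at 669 ± 148 against 406 ± 24.6 CPM (adjusted p = 0.196) and Olfml3 at 19.3 ± 3.25 against 11 ± 2.26 (adjusted p = 0.323). Their libraries did not overlap, as in 19.4% of all genes. Of 24 phagocytosis genes 18 were below 0 (median -0.13), and untreated 15 were (median -0.18). The scavenger receptor gene Olr1 was at 2.11, 3.00 and 3.76 CPM in treated Smad2fl and 0.853, 0.694 and 0.636 in the libraries labelled MyS2KO (log2 change -2.01 ± 0.54, adjusted p = 0.11).

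Inflammatory genes lay on the other side of 0. Of 19 cytokine genes tested 18 were above 0 in the libraries labelled MyS2KO, with a median of 0.71 against 0.01 over all genes, and 0 were called by edgeR. Tnfsf9, the ligand of 4-1BB, was at 6.93, 7.05 and 8.46 against 11.8, 16.2 and 17.9 CPM (log2 change 1.03 ± 0.25, adjusted p = 0.0748). Il6 was low, at 0.234, 0.0881 and 0.783 against 1.76, 2.68 and 1.47 CPM (log2 change 2.45 ± 0.88, adjusted p = 0.305). Osm, oncostatin M, was the 1 cytokine gene below 0, at 10.8 ± 1.87 against 6.08 ± 0.394 CPM (adjusted p = 0.264). Untreated, 17 of the 19 were above 0 as well, with a median of 0.47.

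Of 20 chemokine genes 16 were above 0 (median 0.53), again with 0 called, and untreated 15 were above 0 (median 0.18). The neutrophil attractant gene Cxcl1 was at 1.26, 1.06 and 2.61 against 4.89, 6.19 and 8.27 CPM (log2 change 1.99 ± 0.53, adjusted p = 0.11) and Cxcl2 at 18.5, 22.3 and 41.2 against 56.5, 56.9 and 59.9 (log2 change 1.08 ± 0.36, adjusted p = 0.238). Of 30 interferon-induced genes 28 were above 0, with a smaller median of 0.24 (0.21 untreated). Irf7 was at 1688 ± 135 against 2334 ± 487 CPM (adjusted p = 0.634). Toll-like receptor genes had 20 of 25 above 0 (median 0.17), led by Nfkbiz, an atypical IκB, at 239.9 ± 30.4 against 329.9 ± 15.7 CPM (adjusted p = 0.0767). Immediate early genes were mixed, with 14 of 24 above 0 (median 0.27). Klf6 was at 418 ± 82.4 against 721 ± 40.0 CPM and Fos at 399.6 ± 29.6 against 275 ± 25, and neither was called (adjusted p = 0.141 and 0.308).

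Sterol and fatty acid synthesis genes were below 0 for 20 of 21 members (median -0.28), and untreated for 21 of 21 (median -0.50), with 0 called by edgeR in either. Sqle, squalene epoxidase, was at 98.6 ± 11 against 73.1 ± 8.33 CPM (adjusted p = 0.606). Growth factor genes had a median of -0.24 over 17 tested, with Pdgfa at 42.2 ± 5.02 against 21.5 ± 4.31 CPM (adjusted p = 0.172). Of 19 iron and heme genes tested 14 were above 0 (median 0.14, untreated -0.10). The 1 called (0.421% of all tested genes were) was Hpx, described below with the hepatocyte transcripts. Slc40a1, the iron exporter ferroportin, was at 7.72, 4.05 and 6.99 against 15.3, 16.1 and 14.4 CPM and was not called (log2 change 1.29 ± 0.30, adjusted p = 0.0538). Adam19, a membrane protease, was at 15.0, 17.8 and 8.66 against 5.91, 3.76 and 4.21 CPM (log2 change -1.58 ± 0.41, adjusted p = 0.101) in a list of 19 proteases and inhibitors with a median of -0.19. Tgfbi, a matrix protein named for TGF-β, was at 729.8 ± 84.6 against 451 ± 63.1 CPM (adjusted p = 0.202).

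The remaining function lists had 0 called members and medians between -0.12 and 0.26: antigen presentation 0.18, alternative activation 0.18, matrix 0.26, lysosome 0.14, oxidative stress 0.12, unfolded protein response 0.07, heat shock -0.10, S and M phase genes -0.01, G1 regulators 0.23, ribosomal proteins 0.11 and mitochondrial transcripts -0.12.

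**Figure D4:**
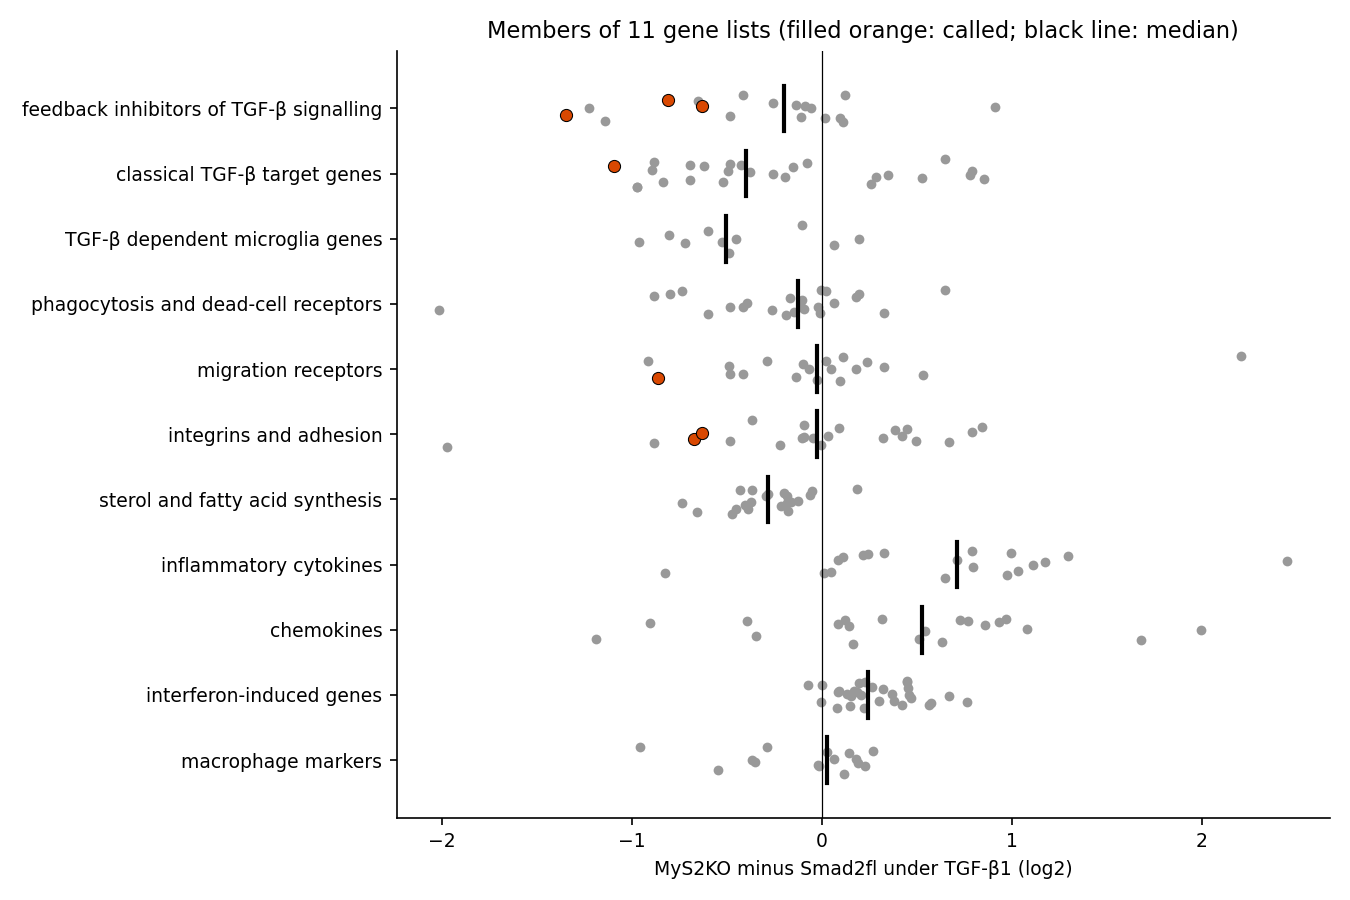
Log2 difference between the libraries labelled MyS2KO and Smad2fl under TGF-β1 (x axis) for the tested members of 11 lists (grey: not called; orange: called at an adjusted p under 0.05; black line: median). TGF-β feedback and target genes have medians of -0.20 and -0.40, and inflammatory cytokines and chemokines have medians of 0.71 and 0.53 with no member called.

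Of the higher genes 5 encode proteins made by hepatocytes: albumin (Alb), hemopexin (Hpx), the vitamin D binding protein (Gc), Serpina3k and Serpina1e. Alb was at 16.3, 17.2 and 15.9 CPM in treated Smad2fl and 49.1, 38.1 and 31.0 in the libraries labelled MyS2KO (log2 change 1.26 ± 0.27, adjusted p = 0.0394). Hpx was at 0.421, 0.661 and 0.365 against 2.1, 1.54 and 2.01 CPM (log2 change 1.94 ± 0.32, adjusted p = 0.00968). Serpina1e had 0 reads in all 12 floxed libraries of the series and 5 to 7 reads in each of the 3 treated libraries labelled MyS2KO, at least 6.52-fold more if the 3 Smad2fl libraries had held 3 reads together. Untreated libraries labelled MyS2KO held 9 to 31 reads each. Those labelled MyS3KO held 10 to 16 untreated and 6 to 18 treated, so reads of Serpina1e were present with Cre also without TGF-β1. Serpina1e and Serpina3k belong to families of near-identical genes, so their counts are uncertain. A list of 30 hepatocyte transcripts, added after these values were seen, had 29 of 29 tested members above 0 (median 1.26). The list holds the 5 called genes, and Serpina1e passed the low-count filter only through libraries with Cre. The count is therefore a description and not separate evidence.

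Summed over the 30 transcripts, the level was 31.1 to 38.4 CPM in treated Smad2fl and 73.8 to 104.4 in the treated libraries labelled MyS2KO. It was 29.0 to 32.8 CPM in untreated Smad2fl and 38.4 to 47.4 in the untreated libraries labelled MyS2KO. In the Smad3 line the treated floxed libraries held 19.5 to 39.7 CPM and those labelled MyS3KO 141.7 to 181.5. The highest sums thus lay in treated libraries with Cre in both lines. The part of this signal in the called genes was not tested.

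**Figure D5:**
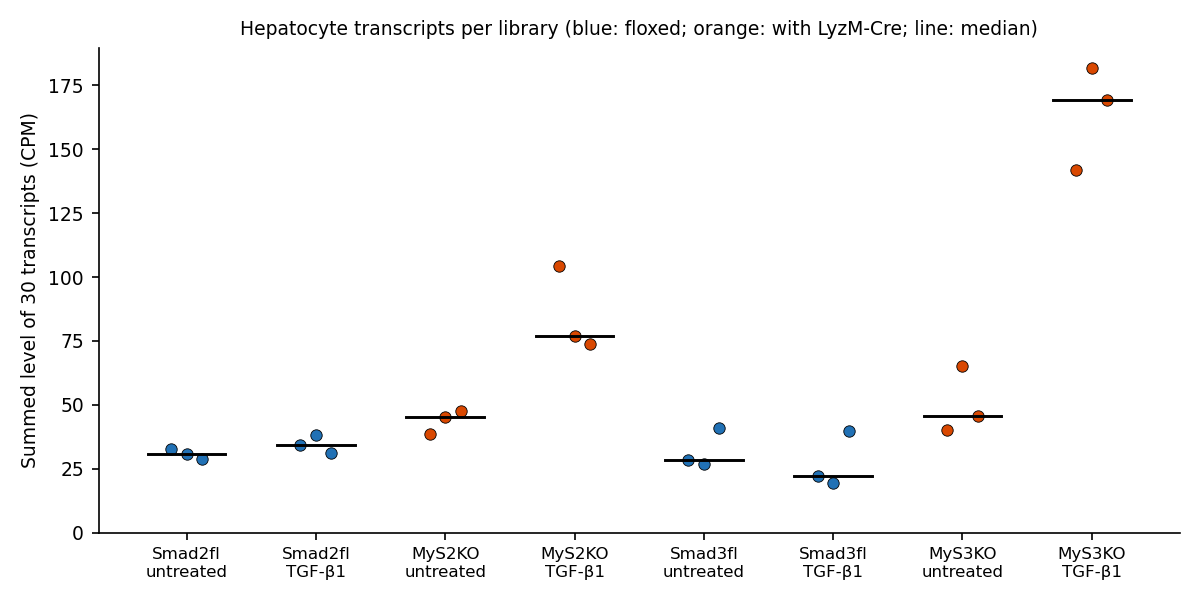
Summed level of 30 hepatocyte transcripts in each of the 24 libraries (y axis, CPM, from 0; blue: floxed; orange: with LyzM-Cre; black line: median of 3). Treated libraries labelled MyS2KO lie at 73.8 to 104.4 CPM and treated libraries labelled MyS3KO at 141.7 to 181.5, above every floxed library, the highest of which is at 41.1.

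Markers of other cell types were followed in the same libraries. Macrophage markers had 0 of 15 called and a median of 0.03. Their lower sum in the libraries labelled MyS2KO included Lyz2, described above, while Adgre1, which encodes F4/80, was at 8970.4, 8827 and 8389 against 8578, 8578 and 8609.7 CPM. Neutrophil and granule genes had 7 of 8 tested above 0 (median 1.18) at low levels, summing to 13.5 to 16.3 CPM in treated Smad2fl and 17.5 to 19.6 in the libraries labelled MyS2KO. Untreated, 7 of the 8 were above 0 as well (median 1.67), with sums of 13.6 to 17.7 against 20.6 to 26.4 CPM. Under TGF-β1 S100a8 was at 0.281, 0.22 and 0.313 against 1.71, 1.09 and 0.685 CPM (log2 change 2.07 ± 0.53, adjusted p = 0.0967). Fibroblast markers summed to 2.40 to 2.82 against 2.98 to 4.61 CPM. Their median of 2.02 over 5 tested genes belonged to Dcn, at 0.0936, 0.044 and 0 against 0.398, 0.0495 and 0.196 CPM. Untreated, 4 of the 5 were below 0 (median -3.12). Col1a1 had 0 reads in treated Smad2fl and 15 in the libraries labelled MyS2KO, 14 of them in 1 library. Dendritic cell, B cell, T and NK cell, megakaryocyte and erythroid markers had medians between -0.33 and 0.14 and overlapping sums, except for erythroid markers at 7.30 to 7.57 against 5.40 to 7.24 CPM. Endothelial genes summed to 96.5 to 103.8 against 117.6 to 135.2 CPM, of which Kdr made 59.1 ± 3.20 and 90.0 ± 8.62. Osteoclast genes summed to 119.2 to 122.1 against 130.2 to 143.7 CPM. Untreated, the endothelial sums were 108.5 to 139.6 against 149.8 to 180.3 CPM. The untreated osteoclast sums were 130.4 to 138.4 against 142.0 to 145.2 CPM. Mast cell and basophil markers stayed below 0.49 CPM in sum. The part of these levels in the differences above was not tested.

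In the Smad3 line the corresponding comparison under TGF-β1 called 4017 genes (28.2%). Of the 60 genes, 23 were called there, 19 with the same sign, and 44 of 60 had the same sign at all. The count of 4017 includes the Smad3fl libraries that stood apart, and was 2219 without Smad3fl library 2 and 2570 without MyS3KO library 3. The difference between the lines was itself tested, and 1011 genes were called (7.09%), 22 of them among the 60. Leaving out 1 library left 348 to 1377 calls. That test contains the libraries by which the 60 were called. Cxcr4 was lower in the libraries labelled MyS2KO and higher in those labelled MyS3KO (-0.86 and 0.52, adjusted p of the difference 0.00194), and so was Itga6 (-0.67 and 0.62, adjusted p = 0.000795). Fhad1 fell in both (-1.11 and -1.53) and Cited2 rose in both (1.03 and 0.62), and for these the lines were not called as different (adjusted p = 0.342 and 0.277). Smad7, Ski and Pmepa1 changed by -0.30, -0.12 and -0.24 in the Smad3 line and were not called there.

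The reverse choice of genes gave another view of the lines. Of 217 genes called and raised at least 2-fold by TGF-β1 in both Smad2 genotypes, 143 were lower in treated libraries labelled MyS3KO than in treated Smad3fl (median -0.24), with 50 called lower and 20 called higher. Over all 14261 genes in that comparison 1876 were called lower and 2141 higher (28.2% in all). Of 10 genes called and lowered at least 2-fold in both Smad2 genotypes, 5 were lower and 5 higher (median -0.06).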

How the data were processed

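Poly-A RNA of bone marrow macrophages was sequenced in 24 libraries, 3 in each of 8 groups. The authors deposited read counts per gene for each library, and FPKM values per gene. TopHat2 2.0.9, HTSeq 0.6.1, Cufflinks 2.1.1 and the mouse build mm10 are named per the submitters' processing notes. For the strand setting and the counting mode, nothing was given in the sources used here. The 6 libraries compared held 17661674 to 22754978 counted reads (16868501 to 24918582 over all 24).

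The deposited counts were fitted with edgeR 4.0.16 (R 4.3.3), with TMM scaling, the default low-count filter by group, and quasi-likelihood tests of contrasts between the 8 groups in 1 model with 16 residual degrees of freedom. Of 54532 deposited genes, 26189 had no read and 14261 were tested. P-values were adjusted by Benjamini-Hochberg over all tested genes, and called means an adjusted p under 0.05. Levels are CPM on TMM-scaled library totals. FPKM values were not used for any test. The median biological coefficient of variation was 21.2%. The fit was tested on simulated data with known changes. It recovered 10 of 50 changes of 1.5-fold, 34 of 50 of 2-fold, 47 of 50 of 4-fold and 49 of 50 of 8-fold. Of 145 calls there, 5 were false. Changes near 1.5-fold were thus mostly not called.

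Named genes were Smad2, Smad3, Smad4, Smad7 and Lyz2, the 15 called genes in each direction with the largest change whose libraries did not overlap and whose higher group averaged at least 1 CPM, the called members of each list or otherwise up to 3 with the smallest p, the 10 genes of each TGF-β1 set with the smallest p, and the 5 in each direction with the smallest p in the interaction and in the difference between lines. The other called genes were named after their values were seen. The genes and the 41 lists (714 symbols) were chosen with earlier results of these data known. The 30 hepatocyte transcripts, the fit on the 12 libraries of the Smad2 line and the sets chosen in 1 Smad3 genotype were chosen after seeing the data. Alternatives were the libraries in the fit, DESeq2 1.42.0, RLE scaling, other low-count filters, a replicate block and leaving out each library. Promoter sequences came from RefSeq for GRCm38.p6, matched by symbol for 9935 of the 14261 tested genes, at the start farthest upstream. Some genes are not reported here.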

Additional observations from a re-analysis of the deposited data

Results flagged for a closer look

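Each result here is a difference between groups that was itself tested in the edgeR fit, with Benjamini-Hochberg adjustment over all tested genes. Groups of 3 libraries are too small for a check of single outlying libraries. For Chst3, a chondroitin sulfotransferase gene, the difference between the libraries labelled MyS2KO and Smad2fl changed with TGF-β1. The interaction was -1.89 on the log2 scale (adjusted p = 0.00676).

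The difference under TGF-β1 differed between the Smad2 line and the Smad3 line for 22 of the 60 called genes. Values are the log2 difference in the Smad2 line minus that in the Smad3 line, with the adjusted p in parentheses, and they contain the libraries by which the genes were called. Negative values were found for Itga6 -1.30 (0.000795), Cxcr4 -1.38 (0.00194), Nek6 -1.38 (0.00226), Mgat5 -0.55 (0.0164), Fkbp5 -1.0 (0.0185), Vhl -0.72 (0.0191), Gtf2h2 -1.38 (0.02), Alb -1.44 (0.0276), Gc -1.93 (0.028), AU020206 -0.94 (0.0406), Nuak1 -1.02 (0.0455), Ykt6 -0.55 (0.0463). For Itga6, Cxcr4 and Nek6 they belong to genes that were lower in the libraries labelled MyS2KO. For Alb and Gc they belong to genes that were higher there, and by more in the libraries labelled MyS3KO. Positive values were found for Tmem168 0.80 (0.00272), Rnd3 1.53 (0.00349), Ppfibp2 1.35 (0.00349), Pde12 1.25 (0.0043), Gbp8 3.42 (0.0157), Pcdhac2 1.49 (0.0295), Pcsk4 3.00 (0.0312), Zfp703 0.89 (0.0333), Rnd1 2.04 (0.0367), Tob1 0.89 (0.0385).

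Among genes not called in the libraries labelled MyS2KO under TGF-β1, the differences between lines with the smallest p were positive for Gm8730 7.58 (2.08e-08), Hist1h2bq 6.70 (8.72e-06), Nxpe3 2.18 (4e-05), Adamts4 3.43 (6.02e-05), Gsr 2.19 (0.000366) and negative for Arsb -5.40 (1.07e-07), Mgst1 -1.29 (9.78e-05), Anxa6 -2.27 (0.0001), Lhfpl2 -1.62 (0.000366), Gpr183 -3.47 (0.000628). These values include the treated Smad3fl libraries, which stood apart from the others. For Hist1h2bq and Arsb the group apart was MyS3KO. Hist1h2bq averaged 0.211 CPM untreated and 0.0488 treated there, against 7.16 to 11.6 in the other groups. Arsb averaged 61.4 and 57.3 CPM there, against 1.03 to 5.34. Gm8730 averaged 177 and 145 CPM in Smad3fl, against 0.897 to 1.43. These differences were thus present without TGF-β1 as well.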

How the results depend on the processing

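Under TGF-β1 the 60 calls became 271 with only the 6 libraries compared, 212 with DESeq2, 313 with no low-count filter and 142 with the 12 libraries of the Smad2 line, an alternative chosen after seeing the data. Leaving out 1 library gave 0 to 57 calls: 0 without Smad2fl library 1 or without MyS2KO library 2 or 3, 6 without Smad2fl library 2 and 37 without MyS2KO library 1. DESeq2 was not run without single libraries. Each of the 60 lost its call in at least 1 alternative and none changed direction. The untreated 10 calls became 0 with only the 6 libraries compared (1129 at an unadjusted p under 0.05 with edgeR), 99 with DESeq2, 161 with no low-count filter and 21 with the 12 libraries, and 2 to 12 with 1 library left out. The interaction called 0 genes with the 12 libraries (606 at an unadjusted p under 0.05 with edgeR), 5 with DESeq2, 13 with no low-count filter and 0 to 1 with 1 library left out. The 4017 calls of the Smad3 line became 2219 to 3318 with 1 library left out. The 1011 genes that differed between lines became 2332 with only the 12 libraries compared, 1668 with DESeq2, 1908 with no low-count filter and 348 to 1377 with 1 library left out. The Smad2 difference lay between -0.04 and 0.19 with 1 library left out, and changed sign only without MyS2KO library 2 (-0.0352). Over the alternatives run, 312 to 323 of the genes raised by TGF-β1 in the Smad3 line were lower in the libraries labelled MyS2KO, and 94 to 97 of the lowered genes were higher. With a replicate block the calls were 70 under TGF-β1, 19 untreated and 0 for the interaction (493 at an unadjusted p under 0.05 with edgeR). Same-numbered treated libraries of Smad2fl and of those labelled MyS2KO deviated with correlations of -0.000851, 0.00256 and -0.0887. The numbers thus did not pair the libraries of the main comparison, and the block was not used elsewhere. Whether the numbers pair untreated with treated libraries of the same genotype was not checked. The cause of these changes was not tested. At this depth, genes under about 1 CPM rest on few reads.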
